A study of Mus musculus with 16 samples.

Results

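The genes described here are the folding chaperones and the degradation machinery of the endoplasmic reticulum (ER), 53 mouse genes out of the 20622 genes in the files. They were taken from a list of symbols that was drawn up with earlier results of these data known, by a rule that uses no measured value, and fall into 12 genes of the BiP chaperone system, 2 lectin chaperones, 13 enzymes of disulfide formation, 3 prolyl isomerases, 14 genes of ER-associated degradation (ERAD), 6 stress sensors with their processing proteases, and 3 other ER membrane proteins. The study asked how loss of eIF4A2, an RNA helicase of the translation machinery, alters which mRNAs are translated in lung adenocarcinoma. KM cells came from lung tumours of a mouse carrying Rosa26 LSL-MYC/LSL-MYC, an allele that switches on extra MYC after Cre recombination and that both lines share. A lentiCRISPR vector with a guide against Eif4a2 gave KM4A2cr, a pool of 4 clones lacking eIF4A2 protein, and a non-targeting guide gave KMNTC. The cells were untreated. Each line was plated and harvested on 4 separate days, and each lysate gave a library of ribosome-protected fragments (RPF, the pieces of mRNA shielded by translating ribosomes) and a library of total cytoplasmic RNA, 16 libraries in all. Both lines descend from the cells of a single animal, so the 4 replicates measure the spread between days and not between mice. With a single edited and a single control line, an effect of the edit cannot be told apart from that of selecting clones.

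Proteins destined for secretion or for membranes fold inside the ER, where the Hsp70 chaperone BiP, the lectins calnexin and calreticulin, and the protein disulfide isomerases hold, fold and oxidise them. Chains that fail to fold are recognised by mannose-trimming enzymes and lectins, passed through a membrane channel built around the ubiquitin ligase HRD1, and pulled out by the ATPase p97 for destruction by the proteasome, which is ERAD. When unfolded chains accumulate, the unfolded protein response is set off: IRE1 splices the mRNA of the transcription factor XBP1, and ATF6 is cut free in the Golgi, and both factors raise transcription of these genes. Lung adenocarcinoma cells arise largely from alveolar type II cells, a secretory cell type.

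The DNA element that ATF6 binds together with NF-Y, the ER stress element (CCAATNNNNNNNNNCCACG), was looked for on both strands from 250 bases before to 50 bases after the transcription start. It was present in the RefSeq promoters (GRCm38.p6) of 9 of the 41 members that had an entry, 22.0%, and in 37 of 27025 mouse genes, 0.137%. Since the members were picked as known targets of ATF6 and XBP1, this excess is part of how they were chosen. The sites printed here belong to 4 members that rose in the KM4A2cr ribosome footprints and to the 2 best known members that did not pass the test. CCAAT and CCACG are in capitals, coordinates run from the first to the last capital, and the strand is that of the printed sequence.
Hspa5 (chr2:34772025-34772043, plus strand): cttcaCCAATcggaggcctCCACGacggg
Hsp90b1 (chr10:86705533-86705551, plus strand): actcaCCAATcgtgcctcaCCACGcactc
Calr (chr8:84847075-84847093, plus strand): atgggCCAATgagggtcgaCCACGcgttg
Canx (chr11:50325800-50325818, minus strand): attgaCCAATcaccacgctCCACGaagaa
Creld2 (chr15:88819520-88819538, minus strand): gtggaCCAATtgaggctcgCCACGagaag
Dnajc3 (chr14:118937827-118937845, plus strand): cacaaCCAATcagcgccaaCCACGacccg

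Hsp90b1 held a second copy, and Pdia6, Syvn1 and Derl3 held 1 each. A shorter form of the element (ATTGGNCCACG, 0.0444% of all promoters) was found in Dnajb11 and Herpud1, and the unfolded protein response element bound by XBP1 (TGACGTGG, 0.714% of all promoters) in Txndc5, Txndc11, Ube2j1 and Vcp. All 3 motifs share the bases CCACG on 1 strand, and no member held more than 1 kind. A match is a description of the letters only. The Herpud1 and Txndc5 sites are given for comparison, again with the motif in capitals.
Herpud1 (chr8:94386377-94386387, plus strand): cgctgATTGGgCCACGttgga
Txndc5 (chr13:38528045-38528052, minus strand): gccgcTGACGTGGcgcta

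The RPF libraries held between 4512403 and 9621848 counts and the total RNA libraries between 5350920 and 9312624. Eif4a2 itself, the edited gene, had an RPF log2 fold change of -0.49 (SE 0.15, edgeR adjusted p = 0.0941) and an RNA log2 fold change of -0.18 (SE 0.13, adjusted p = 0.504). The guide targets the coding region, so counts over the gene do not show whether the protein was lost. The 5 epithelial markers summed to between 3911 and 5714 TPM in every library. Of the 7 alveolar type II markers, 5 stayed under 1 TPM, among them the surfactant genes that define the cell type, with Sftpc and Sftpb at 0, while Lamp3 reached 1.63 TPM and Abca3, a lipid transporter, lay between 27.6 and 34.6 TPM in KMNTC and between 36.5 and 47.6 TPM in KM4A2cr. Of the 7 fibroblast markers, Pdgfra reached 3.03 TPM and the other 6 at most 0.12, and the 3 endothelial markers summed to at most 1.94 TPM. Of the immune markers Ptprc, Adgre1, Cd3e and Cd68, only Cd68 exceeded 1 TPM, with values given beside replicate 4. Values below are CPM, counts scaled to a common library size by the trimmed mean of M values (TMM), and are listed in the order of replicates 1, 2, 3 and 4. Scaling acts within each kind of library, so a change of all footprints or all mRNA leaves no trace, and a lower level cannot be told apart from fewer cells carrying the mRNA. With scaling by library size alone, the typical gene moved to a log2 fold change of -0.14 in RPF and -0.15 in RNA, so each change is read relative to the median gene.

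As a group the ER genes stood higher in KM4A2cr. Of the 53 members, 52 passed the filter on low counts and Derl3 did not. In RPF, 14 of the 52 were significantly higher in KM4A2cr and 0 were lower at an edgeR adjusted p under 0.1, whereas 6.6% of all 10291 genes tested were higher and 3.72% lower. Their median RPF log2 fold change was 0.39, with a range from -0.31 (Vcp) to 0.90 (Ero1l), against -0.01 for all genes. Of the 52, 46 lay above 0, against 48.9% of all genes. In total RNA, 8 of 52 were higher and 0 lower, against 4.35% and 1.78% of all 10880 genes. The member median was 0.34 against 0.01 for all genes, and 47 of 52 lay above 0 against 51.6% of all genes. The 8 members called in RNA were all among the 14 called in RPF. These calls came from comparing the lines within each day. Without the day as a term in the fit, 0 members passed in either kind of library, and the number rose to 38 in RPF and 41 in RNA when replicate 4 was left out. Leaving out replicate 1, 2 or 3 brought it to 5, 3 and 0 in RPF and to 1, 0 and 0 in RNA. For these fits, and for the fit without the day term, the share of all genes called was not counted. Whether the loss of calls was particular to the members therefore cannot be said.

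**Figure D1:**
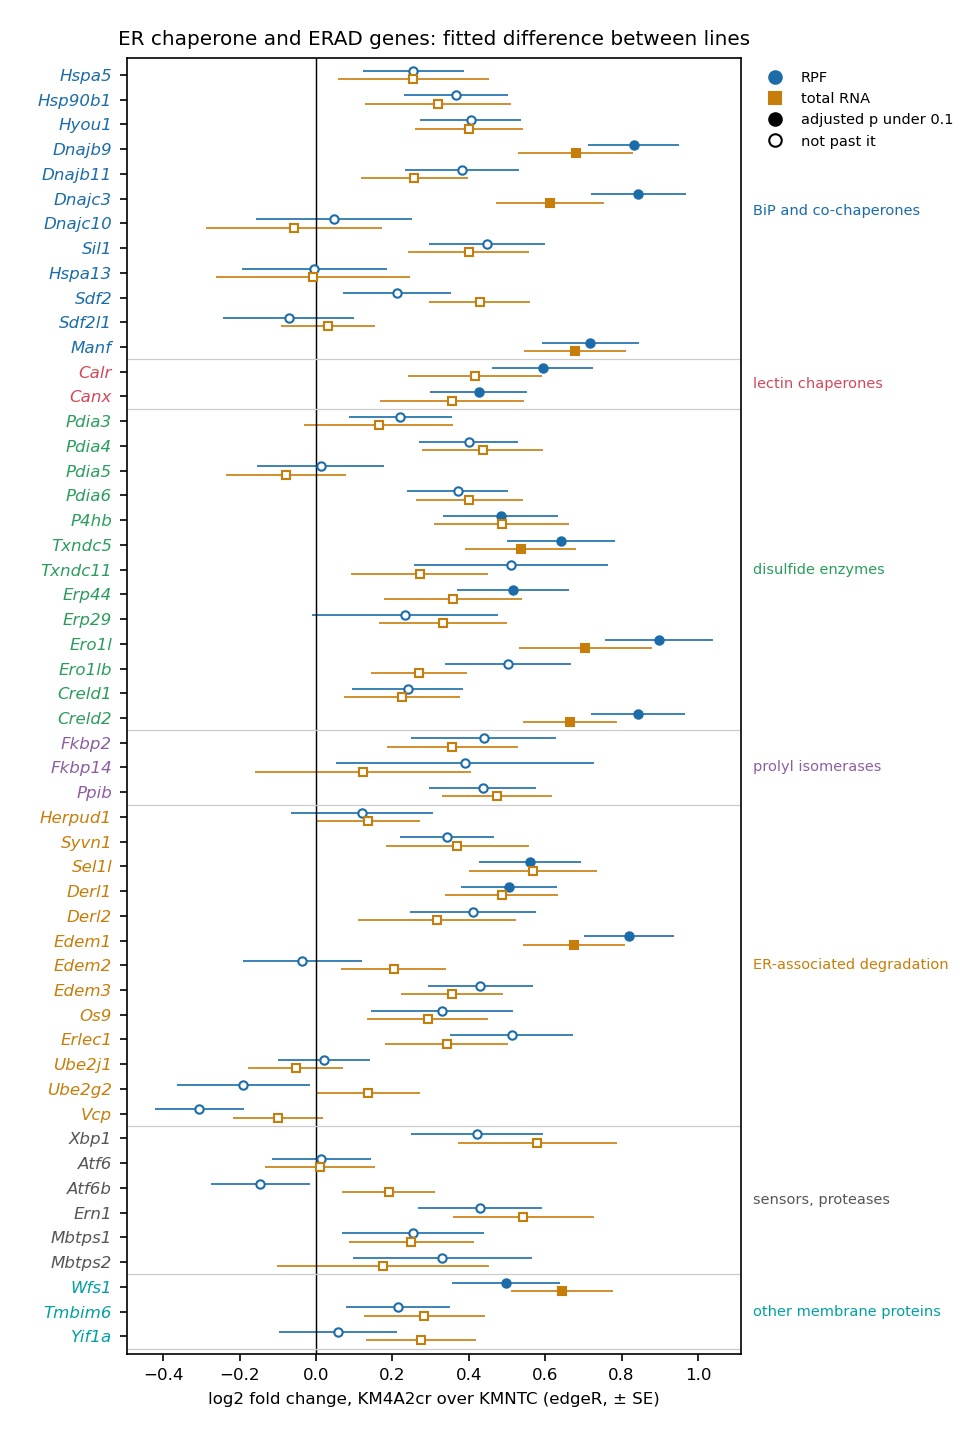
Fitted log2 fold change of KM4A2cr over KMNTC for the 52 tested members, grouped by role, with RPF as circles and total RNA as squares and bars for ± 1 SE. Filled symbols passed an edgeR adjusted p of 0.1: 14 in RPF and 8 in total RNA, all to the right of 0.

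The BiP system supplied 3 of the 14 RPF calls from its 12 tested genes, where 6.6% of all genes were higher. Dnajb9 encodes ERdj4, a J-domain cochaperone that holds IRE1 inactive through BiP. Its RPF values were 143, 110.0, 170.2 and 483 CPM in KMNTC and 242, 182, 332 and 889 CPM in KM4A2cr, and its RNA values were 192, 130.5, 225 and 434 CPM in KMNTC and 268, 251, 430.0 and 559 CPM in KM4A2cr. Replicate 4 was highest in both lines, and every KM4A2cr library exceeded the KMNTC library of its own day although the ranges of the lines overlapped. The RPF log2 fold change was 0.83 (SE 0.12), a 1.78-fold rise (edgeR adjusted p = 0.0102), and the RNA rose 1.60-fold (adjusted p = 0.0413). Dnajc3, a J-domain cochaperone that also restrains the kinase PERK, had RPF values of 111, 80.2, 118 and 169 CPM in KMNTC and 235, 132, 209 and 282 CPM in KM4A2cr. It rose in 4 of 4 pairs, by 0.84 (SE 0.13) on the log2 scale (edgeR adjusted p = 0.0111). Its RNA rose by 0.61 (SE 0.14) (edgeR adjusted p = 0.0474). Manf, a secreted cofactor that stabilises client complexes of BiP, was counted at 222, 185, 256 and 602 CPM in KMNTC and 424, 276, 448 and 886 CPM in KM4A2cr, with replicate 4 far above the rest in each line. Its log2 fold change was 0.72 (SE 0.13) in RPF (edgeR adjusted p = 0.0195) and 0.68 (SE 0.13) in RNA (adjusted p = 0.0247).

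BiP itself, Hsp90b1 and Hyou1 did not pass. Hspa5, which encodes BiP, had RPF values of 3928, 3953, 5633 and 11811 CPM in KMNTC and 5261, 4204, 6119.8 and 15462 CPM in KM4A2cr. Replicate 4 stood far above the other days in either line, and the step between lines was small beside it. Hspa5 was higher in KM4A2cr in 4 of 4 pairs, with a log2 fold change of 0.25 (SE 0.13) (edgeR adjusted p = 0.286). The RNA gave 0.26 (SE 0.20) with an adjusted p of 0.544 (edgeR). Hsp90b1, the ER form of Hsp90, was measured at 4417, 4099.9, 5826 and 12859.6 CPM in KMNTC and 7005, 4845, 7236 and 15305 CPM in KM4A2cr. Here too all 4 pairs pointed upwards, and the log2 fold change was 0.37 (SE 0.14) (edgeR adjusted p = 0.151). Hyou1, a nucleotide exchange factor of BiP, had RPF values of 970.3, 558, 898 and 1926 CPM in KMNTC and 1404, 773, 1309 and 2024 CPM in KM4A2cr, a log2 fold change of 0.40 (SE 0.13) and an edgeR adjusted p of 0.114, just outside the threshold.

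Among the remaining BiP partners, Sil1, another nucleotide exchange factor, and Dnajb11, the cochaperone ERdj3, had RPF log2 fold changes of 0.45 and 0.38. Values near 0 were found for Hspa13, a divergent Hsp70, and for Dnajc10, a disulfide reductase that works with BiP: both were higher in KM4A2cr on days 1 to 3 and lower on day 4, where the RNA differences were -1.26 and -1.06. Sdf2 and Sdf2l1 are paralogues that bind ERdj3. Sdf2 had log2 fold changes of 0.21 in RPF and 0.43 in RNA, neither past the threshold. Sdf2l1, a widely used marker of ATF6 activity, was measured at 47.6, 45.2, 78.1 and 90.6 CPM in KMNTC and 65.2, 39.0, 52.2 and 93.7 CPM in KM4A2cr. It was higher in KM4A2cr on days 1 and 4 and lower on days 2 and 3, and its log2 fold change was -0.07 (SE 0.17) in RPF (edgeR adjusted p = 0.836) and 0.03 (SE 0.12) in RNA (adjusted p = 0.929). The sign of these small Sdf2l1 values turned under other settings.

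Both lectin chaperones rose in RPF. Calr encodes the soluble calreticulin, whose RPF values were 2453, 1440.1, 2068 and 5693 CPM in KMNTC and 4294, 1941, 3351 and 7718 CPM in KM4A2cr. Canx encodes its membrane-bound relative calnexin and was measured at 2959.7, 1849, 2817 and 6051 CPM in KMNTC and 4519.9, 2469, 3784 and 7200.3 CPM in KM4A2cr. In each gene all 4 pairs were higher in KM4A2cr, replicate 2 was lowest and replicate 4 highest in both lines. The RPF log2 fold changes were 0.59 (SE 0.13) for Calr (edgeR adjusted p = 0.0403) and 0.43 (SE 0.13) for Canx (adjusted p = 0.0934). Their RNA log2 fold changes, 0.42 and 0.36, did not pass (edgeR adjusted p = 0.241 and 0.357), and the difference between RPF and RNA was not significant in the model that tests it for either gene (adjusted p = 0.473 and 0.779).

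Of the 13 disulfide enzymes, 5 rose in RPF, where 6.6% of all genes did, and all 13 had values above 0. Ero1l, the oxidase that recharges protein disulfide isomerase and passes electrons to oxygen, had the largest change of the 52 members, with RPF values of 294, 208, 374 and 459 CPM in KMNTC and 667, 404, 715 and 655 CPM in KM4A2cr. Its RNA values were 386, 268, 469 and 479.6 CPM in KMNTC and 777, 490.4, 815 and 525 CPM in KM4A2cr, so that the lowest KM4A2cr library lay above the highest KMNTC library. It was the 1 member whose ranges did not overlap in RNA, as in 1.97% of all genes, and 0 members were separated in RPF, as in 2.13% of all genes. Ero1l footprints rose by 0.90 (SE 0.14) on the log2 scale, 1.86-fold (edgeR adjusted p = 0.0127), and its RNA by 0.71 (SE 0.17) (adjusted p = 0.0597). Its paralogue Ero1lb had an RPF log2 fold change of 0.50 (SE 0.16), higher in 4 of 4 pairs but outside the threshold (edgeR adjusted p = 0.114).

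Creld2, a secreted disulfide isomerase with calcium-binding domains, had RPF values of 87.2, 51.7, 82.9 and 139 CPM in KMNTC and 178, 85.2, 152 and 232 CPM in KM4A2cr and RNA values of 37.9, 23.7, 34.8 and 48.7 CPM in KMNTC and 60.3, 32.96, 57.6 and 83.7 CPM in KM4A2cr. In both kinds of library every pair was higher in KM4A2cr. The log2 fold change was 0.84 (SE 0.12) in RPF (edgeR adjusted p = 0.011) and 0.67 (SE 0.12) in RNA (adjusted p = 0.0191). Creld1, a membrane-bound paralogue, had 0.24 in RPF and 0.23 in RNA and passed in neither. Txndc5, a thioredoxin-fold disulfide isomerase, was counted at 416, 219, 446 and 679 CPM in KMNTC and 732, 381, 746 and 787 CPM in KM4A2cr. Replicate 2 of KM4A2cr stood apart at the low end, yet lay above its KMNTC partner, and the log2 fold change was 0.64 (SE 0.14) (edgeR adjusted p = 0.0395). Txndc5 RNA rose by 0.54 (SE 0.14) (edgeR adjusted p = 0.0798).

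Erp44 retains the Ero1 oxidases in the early secretory pathway. It had RPF values of 401, 341, 489 and 1083 CPM in KMNTC and 681, 513, 771 and 1127 CPM in KM4A2cr, and its replicate 4 libraries differed little from each other. The log2 fold change was 0.52 (SE 0.15) (edgeR adjusted p = 0.0817). P4hb, the founding protein disulfide isomerase, was measured at 2002, 1299, 2167 and 2905 CPM in KMNTC and 3456, 1887, 3213 and 2979.7 CPM in KM4A2cr. The difference of 0.48 (SE 0.15) lay at the very edge of the threshold (edgeR adjusted p = 0.09997). Pdia4, with 3 thioredoxin domains, fell just outside it with 1071, 942, 1377 and 2566 CPM in KMNTC and 1684, 1262, 1736 and 2929 CPM in KM4A2cr, a log2 fold change of 0.40 (SE 0.13) and an edgeR adjusted p of 0.111. Pdia6 and Pdia3, the latter a partner of the lectin chaperones, had 0.37 and 0.22, each higher in 4 of 4 pairs, and Pdia5 had 0.01. Txndc11 had a log2 fold change of 0.51 with a wide SE of 0.25, since it was higher on days 1 to 3 and lower on day 4. Erp29 had only 2.09 to 4.23 CPM in RPF against 53.7 to 135 CPM in RNA, so its RPF value of 0.23 is imprecise (SE 0.24).

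The 3 prolyl isomerases, which turn peptide bonds at proline, had RPF log2 fold changes of 0.44 (Fkbp2), 0.39 (Fkbp14) and 0.44 (Ppib), none of them past the threshold. Ppib, cyclophilin B, exceeded its KMNTC partner on every day in RPF and RNA, and its edgeR adjusted p was 0.11 in RPF and 0.112 in RNA. Fkbp14 was scarce, at 1.88 to 8.45 CPM in RPF, and its day 4 difference of -1.46 on the log2 scale opposed the other days. Fkbp2 was likewise higher on days 1 to 3 and lower on day 4.

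In ERAD, 3 of 13 tested members rose in RPF, where 6.6% of all genes did. Edem1 encodes a lectin-like protein that marks misfolded glycoproteins by mannose trimming. Its RPF values were 54.7, 45.4, 73.1 and 89.6 CPM in KMNTC and 103, 79.0, 131 and 148 CPM in KM4A2cr and its RNA values were 158, 148, 189 and 249 CPM in KMNTC and 269, 231, 343 and 334 CPM in KM4A2cr. The 4 pairs gave nearly equal RPF steps, 0.91, 0.80, 0.84 and 0.72 on the log2 scale, and the fitted change was 0.82 (SE 0.12) (edgeR adjusted p = 0.0102). In RNA it was 0.68 (SE 0.13) (edgeR adjusted p = 0.0247). Edem3, a paralogue with trimming activity, had 0.43 (SE 0.14) in RPF (edgeR adjusted p = 0.107), and Edem2 had -0.04 (SE 0.16) (adjusted p = 0.913).

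Sel1l, the adaptor that couples substrates to HRD1, had RPF values of 342, 349.8, 496 and 894 CPM in KMNTC and 528, 554, 829 and 1037 CPM in KM4A2cr. It rose by 0.56 (SE 0.13) in RPF (edgeR adjusted p = 0.0512), and the RNA difference of 0.57 (SE 0.17) fell at the threshold without passing (adjusted p = 0.1003). Derl1, a channel subunit, was measured at 206, 155, 284 and 399.9 CPM in KMNTC and 313, 241, 339 and 575 CPM in KM4A2cr. All 4 pairs were higher, with a log2 fold change of 0.50 (SE 0.13) (edgeR adjusted p = 0.0585). Derl2 had 0.41 in RPF, with a day 4 pair below 0, and Derl3 was nearly absent, with 8 counts in each line over 4 RPF libraries. Syvn1, which encodes HRD1, was higher in 4 of 4 RPF pairs with a log2 fold change of 0.34 (SE 0.12) (edgeR adjusted p = 0.14). The glycan readers Os9 and Erlec1 had 0.33 and 0.51, both with a day 4 pair below 0.

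Herpud1, Vcp, Ube2j1 and Ube2g2 had RPF values near or below 0, and none of them passed. Herpud1, a scaffold of the HRD1 complex whose mRNA is induced by both the ATF6 and PERK arms, had RPF values of 44.4, 42.1, 51.0 and 45.9 CPM in KMNTC and 47.9, 49.6, 35.1 and 73.8 CPM in KM4A2cr. Its pairs disagreed, with a step of -0.53 on day 3 and 0.68 on day 4, and the fitted change of 0.12 (SE 0.19) was not significant (edgeR adjusted p = 0.735). Vcp, the p97 ATPase, which also acts throughout the cytosol, had RPF values of 358, 422, 284 and 165 CPM in KMNTC and 275, 337, 228 and 143 CPM in KM4A2cr. It was the only member lower in KM4A2cr in 4 of 4 RPF pairs, as 16.0% of all genes were, with a log2 fold change of -0.31 (SE 0.12) (edgeR adjusted p = 0.159) against -0.10 in RNA. The ubiquitin-conjugating enzymes Ube2j1 and Ube2g2 had 0.02 and -0.19 in RPF.

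The sensors did not pass in any of the 3 comparisons. Xbp1 had RPF values of 67.3, 61.0, 70.7 and 215 CPM in KMNTC and 97.2, 98.9, 114 and 182 CPM in KM4A2cr and RNA values of 55.1, 54.7, 51.9 and 145 CPM in KMNTC and 80.6, 105, 114 and 117 CPM in KM4A2cr. It was higher in KM4A2cr on days 1 to 3, by up to 1.12 on the log2 scale in RNA on day 3, and lower on day 4, when the KMNTC library reached the top of both series. The fitted changes were 0.42 (SE 0.17) in RPF (edgeR adjusted p = 0.184) and 0.58 (SE 0.21) in RNA (adjusted p = 0.171). Footprints were summed over all reading frames, so the spliced and unspliced forms of Xbp1 cannot be told apart. Ern1, which encodes IRE1, was likewise higher on days 1 to 3 and lower on day 4, with 62.2, 67.3, 81.2 and 83.5 CPM in KMNTC and 105, 94.8, 122 and 74.9 CPM in KM4A2cr. Its log2 fold change was 0.43 (SE 0.16) in RPF (edgeR adjusted p = 0.156). Atf6 had RPF values of 183, 183, 229.8 and 303 CPM in KMNTC and 217, 199.6, 216 and 258 CPM in KM4A2cr. They gave a change of 0.01 (SE 0.13) with an edgeR adjusted p of 0.961, and the sign of this small value turned under other settings. Atf6b, its weaker paralogue, had -0.15 in RPF and 0.19 in RNA, and the Golgi proteases Mbtps1 and Mbtps2 that release ATF6 had 0.25 and 0.33 in RPF, each with a day 4 pair below 0.

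Wfs1 encodes wolframin, an ER membrane protein linked to calcium handling and ATF6 turnover. Its RPF values were 493, 442, 753 and 1190.0 CPM in KMNTC and 712, 786, 826 and 1679.7 CPM in KM4A2cr, and its RNA values were 151, 118, 171 and 291 CPM in KMNTC and 245, 218, 229 and 431 CPM in KM4A2cr. All pairs were higher in KM4A2cr in both kinds of library. The log2 fold change was 0.50 (SE 0.14) in RPF (edgeR adjusted p = 0.0824) and 0.64 (SE 0.13) in RNA (adjusted p = 0.0313). Tmbim6, an ER calcium leak protein, and Yif1a, which serves traffic between ER and Golgi, had 0.21 and 0.06 in RPF.

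**Figure D2:**
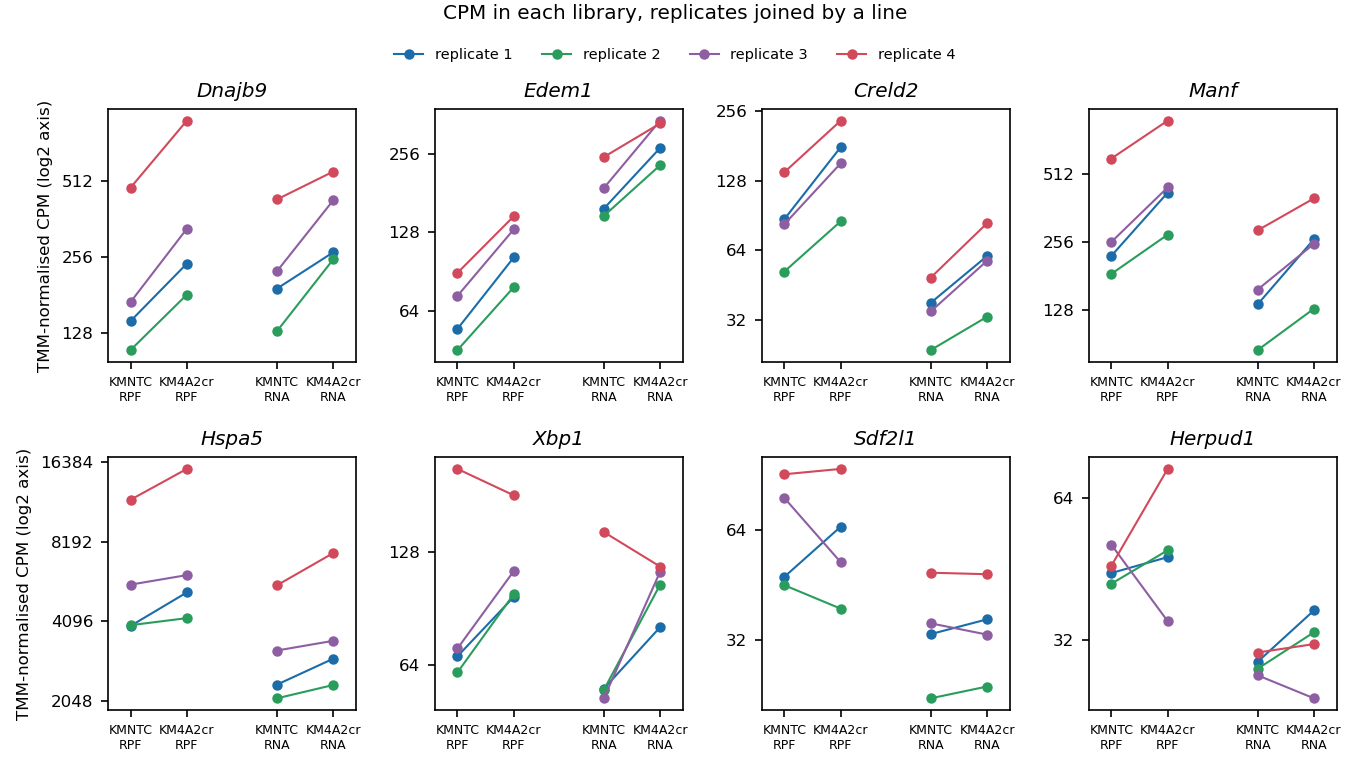
TMM-normalised CPM (log2 axis) of 8 members in each library, with RPF on the left and total RNA on the right of each panel and the KMNTC and KM4A2cr library of a day joined by a line. The lines of Dnajb9, Edem1, Creld2 and Manf climbed on every day, those of Sdf2l1 and Herpud1 crossed, and replicate 4 (red) lay at the top for Hspa5 in every case.

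Hspa5, Pdia3, Dnajc10 and Edem2 lie on chromosome 2. Genes on that chromosome had a median log2 fold change of -0.21 over 838 genes in RPF and -0.17 over 908 genes in RNA, against -0.01 and 0.01 for all genes. Medians were computed for no other chromosome. The part of this shift in the low values of these 4 members was not tested.

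Footprint and mRNA changes of the members were close in size. Translational efficiency (TE), the footprint change beyond the mRNA change, differed for 0 of 52 members at an edgeR adjusted p under 0.1, where 2.87% of all 9989 genes did. The median TE difference of the members was 0.03 on the log2 scale, against -0.02 for all genes. At an unadjusted p under 0.05, 8 members passed, against 14.1% of all genes, and no other tool was run for TE. The widest positive estimates were those of Fkbp14, 0.31 (SE 0.27), Txndc11, 0.26 (SE 0.12), and Dnajc3, 0.23 (SE 0.10). The lowest were Atf6b, -0.33 (SE 0.12), Ube2g2, -0.33 (SE 0.14), and Edem2, -0.24 (SE 0.10). An absent call does not show that TE was equal in the lines. When replicate 4 was left out, 2 members passed, as 5.04% of all genes did in the higher direction: Calr with a TE difference of 0.33 (SE 0.08, edgeR adjusted p = 0.00852) and Txndc11 with 0.37 (SE 0.12, adjusted p = 0.0662).

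The difference between the lines varied with the day. The median member difference between KM4A2cr and KMNTC was 0.63, 0.46, 0.39 and 0.05 on the log2 scale in RPF pairs 1 to 4, with 48, 48, 40 and 29 of 52 members above 0. In RNA it was 0.55, 0.41, 0.42 and 0.01, with 49, 51, 47 and 26 above 0. Of all genes, 4643, 5327, 5160 and 5008 of 10291 lay above 0 in RPF, and 5083, 5749, 5482 and 5561 of 10880 in RNA. For the typical member, then, the difference was large on days 1 to 3 and near 0 on day 4. Higher values in 4 of 4 pairs were found for 24 of 52 members in RPF and 23 in RNA, against 14.1% and 12.4% of all genes. On days 1 to 3 alone, 37 members rose and 1 (Vcp) fell in RPF, where 19.1% of all genes rose and 14.3% fell, and 41 rose in RNA, where 17.8% of all genes did. Xbp1 then reached log2 fold changes of 0.64 (SE 0.10, edgeR adjusted p = 0.000744) in RPF and 0.87 (SE 0.11) in RNA, and Ern1 0.61 (SE 0.10, adjusted p = 0.00107) in RPF. Hspa5 still did not pass, with 0.21 (SE 0.12, edgeR adjusted p = 0.23) in RPF, nor did Sdf2l1, Herpud1 or Atf6.

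**Figure D3:**
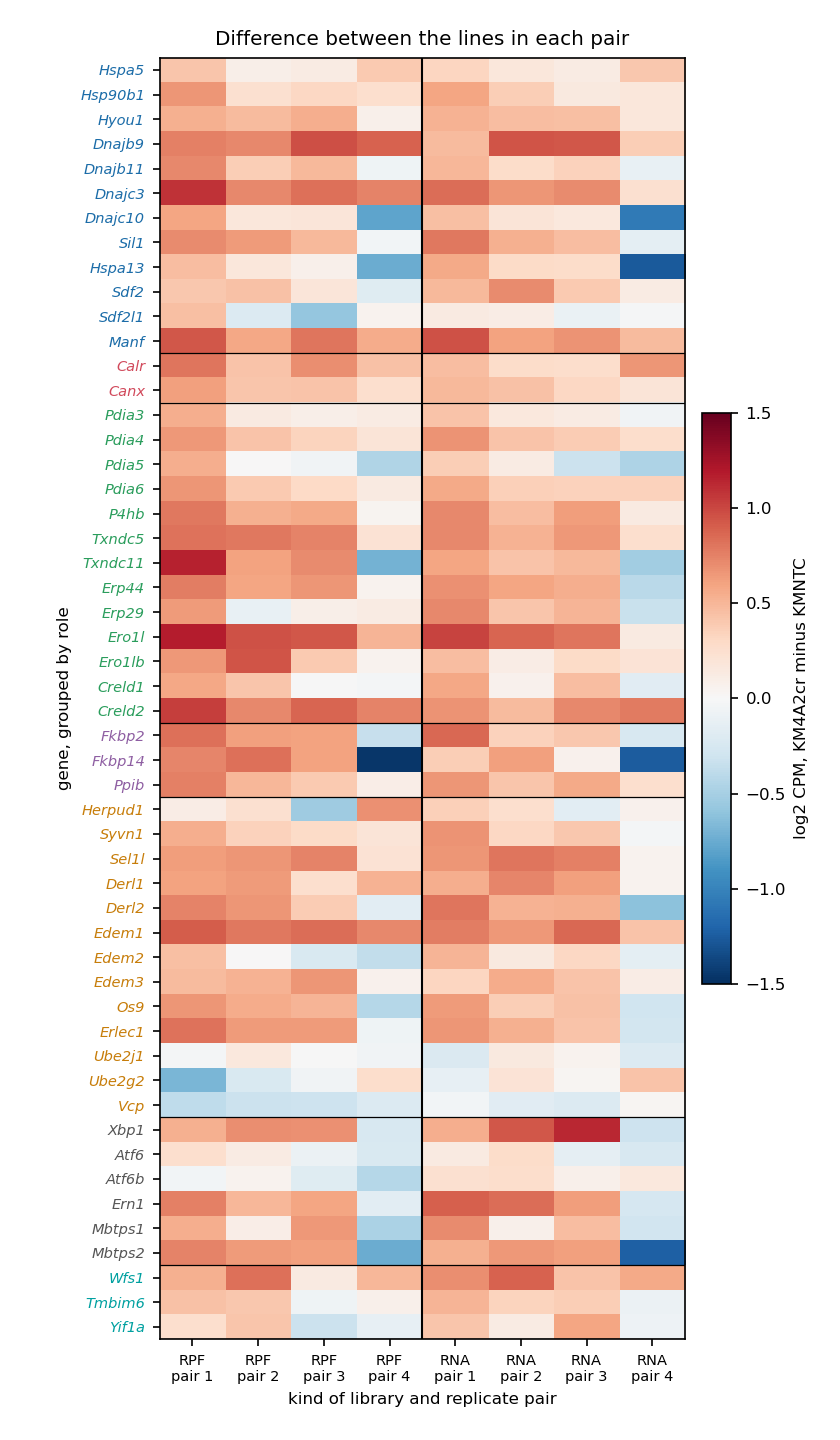
Difference in log2 CPM between KM4A2cr and KMNTC (red higher in KM4A2cr, blue lower) for each of the 52 tested members, rows grouped by role, in RPF pairs 1 to 4 and RNA pairs 1 to 4. Red fills most cells of pairs 1 to 3, while in pair 4 only 29 RPF and 26 RNA cells lie above 0.

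Replicate 4 differed from the other days in level as well as in the step between lines. It was the highest of the 4 days in both lines for 33 of 52 members in RPF and 25 in RNA, against 22.0% and 23.3% of all genes. Relative to the mean of replicates 1 to 3, the median member stood 0.84 higher on the log2 scale in KMNTC and 0.60 higher in KM4A2cr in RPF, and 0.67 and 0.26 higher in RNA, while the median of all genes lay between -0.05 and 0.02. A level at least 2-fold higher in both lines was reached by 11 members in RPF and 4 in RNA, against 4.83% and 4.87% of all genes, and 0 members were at least 2-fold lower in both, against 6.19% and 4.12%. Members took 5.70% of all RPF counts in KMNTC replicate 4 against 3.02% to 3.70% on the other days, and 6.61% against 3.46% to 4.58% in KM4A2cr. Because replicate 4 is 1 day and was singled out with results known, these values carry no test. With scaling by library size alone the median of all genes in RPF lay at -0.41 in KMNTC and -0.33 in KM4A2cr, and the 11 became 5. Of all 10291 genes, 210 were then at least 2-fold higher in both lines in RPF and 1329 at least 2-fold lower. Among the members, 2 were at least 2-fold lower in both lines, Vcp and Mbtps1. The macrophage and lysosome gene Cd68 moved with replicate 4 as well, at 33.04, 38.3, 32.5 and 219.9 TPM in KMNTC and 62.9, 43.3, 37.3 and 154.3 TPM in KM4A2cr. The immune markers Ptprc, Adgre1 and Cd3e reached at most 0.67 TPM, and the part of Cd68-expressing cells in the replicate 4 values was not tested.

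The rise in replicate 4 had its own order of genes. In RPF it was largest, as the mean over the lines, for Ero1lb (2.01 on the log2 scale), Dnajb9 (1.83), Sil1 (1.65), Hspa5 (1.50) and Calr (1.45). Ero1lb, an oxidase prominent in secretory cells, went from 11.2 to 18.1 CPM on days 1 to 3 to 75.1 CPM on day 4 in KMNTC and from 21.8 to 25.6 CPM to 77.8 CPM in KM4A2cr. Ero1l, with the largest change between the lines, stood only 0.69 and 0.18 higher. At the other end were Mbtps1 (-1.27), Vcp (-1.02), Txndc11 (-0.70), Fkbp14 (-0.30) and Yif1a (-0.21). Fkbp14 was 0.79 above days 1 to 3 in KMNTC and at -1.39 in KM4A2cr, and 40 members were above 0 in both lines against 36.5% of all genes.

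**Figure D4:**
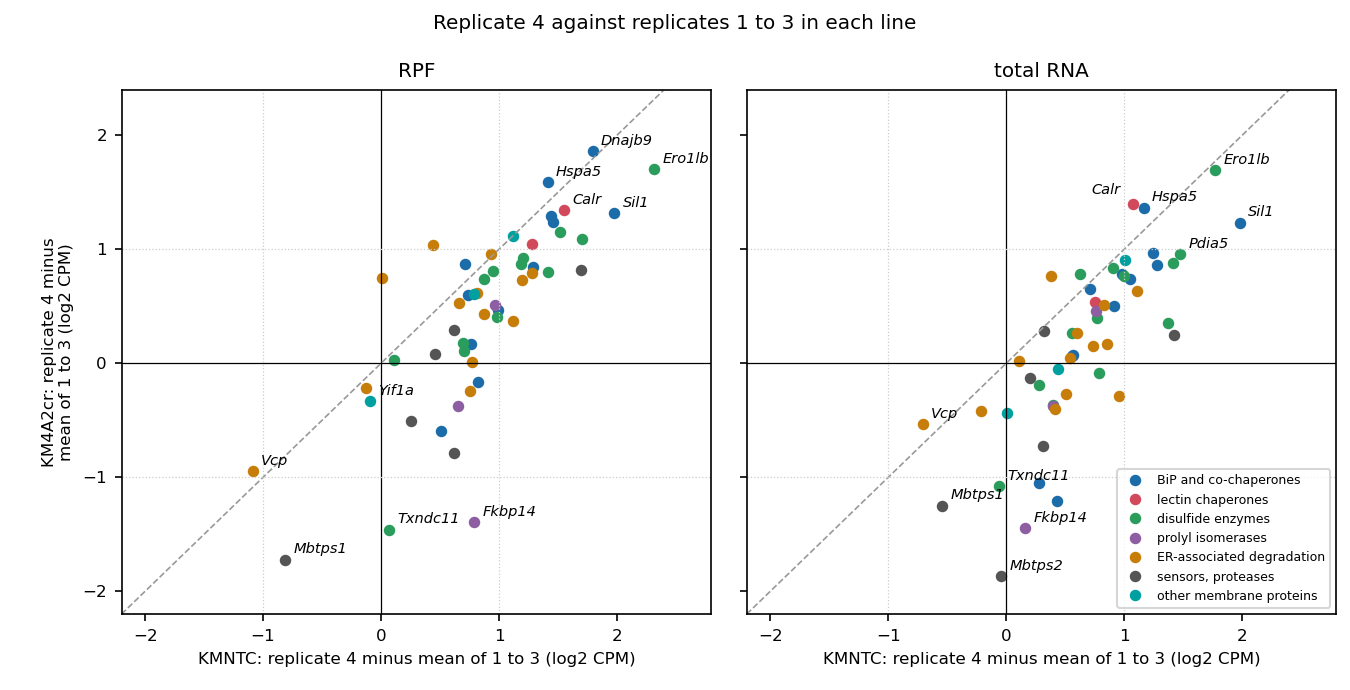
Log2 CPM of replicate 4 minus the mean of replicates 1 to 3 for each tested member, KMNTC on the x axis and KM4A2cr on the y axis, RPF left and total RNA right, coloured by role. The dashed line marks equality and dotted lines a 2-fold step. Most points lie right of 0 and below the dashed line, and the 5 highest and 5 lowest members by mean are named.

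Paralogues differed in which of them passed the test. In RPF, Creld2 rose (0.84) while Creld1 had 0.24, and Edem1 rose (0.82) while Edem3 had 0.43 and Edem2 -0.04. Derl1 rose (0.50) with Derl2 at 0.41. Sdf2 had 0.21 against -0.07 for Sdf2l1, and Atf6 0.01 against -0.15 for Atf6b. Ero1l and Ero1lb had 0.90 and 0.50, Os9 and Erlec1 0.33 and 0.51, and Fkbp2 and Fkbp14 0.44 and 0.39. The values of Edem2, Sdf2l1, Atf6 and Atf6b did not pass, so no opposite direction was established, and none of the differences between paralogues was tested.

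Levels can be compared between genes on the length-corrected TPM scale of total RNA. Hspa5 was the most abundant member in KMNTC, at 1916 ± 625 TPM (SD, n = 4), followed by Pdia3 at 1857 ± 258, Hsp90b1 at 1485 ± 413, Calr at 1159 ± 353 and Canx at 1139 ± 221. Each differed from its neighbour in this order by less than the larger of their SDs. P4hb (989 ± 181) and Ppib (932 ± 154) came next. The members with the largest RPF changes were of middling abundance, with Dnajb9 at 178 ± 66.6, Ero1l at 162 ± 24.7, Dnajc3 at 67.0 ± 8.22, Edem1 at 56.4 ± 5.90 and Creld2 at 51.7 ± 7.64 TPM. Among the sensors, Xbp1 lay at 85.0 ± 37.6, Atf6 at 83.4 ± 6.36 and Ern1 at 22.3 ± 2.10 TPM.

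Members with and without the ER stress element had close medians for the change between lines. The 8 tested members with an ER stress element gave a median of 0.40 for the RPF change on the log2 scale, with 4 called, and the 32 tested members with a promoter entry but without it had 0.39, with 7 called. All of these calls were higher in KM4A2cr, as were 6.6% of all genes. The 6 tested genes outside the members that held the element had a median of -0.15. In replicate 4 the medians were 1.23 in KMNTC and 0.96 in KM4A2cr for the 8, and lower, 0.78 and 0.42, for the 32.

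Genes of neighbouring pathways were read from lists outside the 53. Among 27 tested genes of other ERAD steps, 6 rose and 0 fell in RPF (median 0.35), among them Selenos, a recruiter of p97, with 0.63 (SE 0.15, edgeR adjusted p = 0.0467). TE was higher for 4 of them, Herpud2 (0.63), Ube2j2 (0.49), Fam8a1 (0.46) and Ube2k (0.36), against 1.87% of all genes. Among 30 tested genes of other ER folding steps, 2 rose (Tmx1 and Cnpy3) and 1 fell (Stc2, which was near the detection limit) in RPF, with a median of 0.31, so that the calls were at the share of all genes (6.6% higher and 3.72% lower). The PERK and ATF4 arm, which couples ER stress to amino acid supply and cell death, had a median RPF change of -0.01 over 20 tested genes, with 1 higher (Vldlr, 0.83) and 1 lower (Gpt2, -0.59). In RNA its median was 0.04 over 21 genes, with 2 higher (Vldlr, 0.74, and Ddit4, 0.80) and 0 lower. Its RPF pair medians were -0.27, -0.0039, 0.03 and 0.29 on days 1 to 4, and its difference from the members was not tested. In RPF, 10 of its 20 tested genes lay above 0. Atf4 had -0.25, Trib3 -0.40 and Eif2ak3, which encodes PERK, 0.39 in RPF, none past the threshold. Ddit3 had 0.86 in RNA and did not pass either. A list of membrane-bound relatives of ATF6, with Ern2 added, held 6 genes, of which 2 passed the filter on low counts. Creb3l2, a relative that serves secretory cells, rose by 0.86 in RPF and 1.11 in RNA. Creb3 had -0.14 in RPF and -0.03 in RNA and passed in neither.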

How the data were processed

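RPF and total cytoplasmic RNA libraries were analysed, 8 of each kind. Per the sources, the authors trimmed reads with cutadapt 1.18, removed duplicates by molecular identifier with UMI-tools 1.0.1, and aligned RPF reads with BBmap, after removing rRNA and tRNA reads, and total RNA reads with Bowtie2 2.3.5.1. SAMtools 1.9 sorted the alignments. The deposited RPF files held whole-number counts over the coding sequence of 1 transcript per gene, summed over all reading frames, with the first 20 and last 10 codons left out. The deposited total RNA files held RSEM 1.3.3 expected counts per isoform of GENCODE vM27, which were summed per gene and rounded, and TPM values computed by the authors with RSEM, which were summed per gene. Gene IDs were matched to symbols through a name table for 20586 of 20622 genes. Because RNA reads fix isoforms only in part while RPF counts use 1 transcript, total RNA was also fitted on that isoform alone.

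Tests used R 4.3.3, edgeR 4.0.16 (with limma 3.58.1) and, as an alternative, DESeq2 1.42.0. After filterByExpr and TMM scaling, glmQLFit and glmQLFTest were applied with the line and the replicate in the design. Each p was adjusted by Benjamini-Hochberg across every gene in the fit, and 0.1 was the threshold. TE was tested as a line-by-kind interaction over the 16 libraries, in a model that also held the lysates and each kind's days. Log2 CPM used a prior count of 2. Scripts were tested on simulated counts.

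The labels say that replicates are independent experiments harvested on different days, and the replicate number was used as the pair. Deviations of same-numbered KMNTC and KM4A2cr libraries from their line means correlated across genes at 0.763, 0.782, 0.575 and 0.687 in RPF and at 0.756, 0.736, 0.611 and 0.708 in RNA.

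The 53 members, the gene lists and replicate 4 were chosen with earlier results of these data known. RPF values in every library are given for members past the threshold and for 13 textbook sensors and targets, 23 in all. They are also given for Vcp, which was added after its values were seen. Among these genes, RNA values in every library are given only for Dnajb9, Ero1l, Creld2, Edem1, Xbp1 and Wfs1. The replicate 4 account names the 5 members with the largest mean rise and the 5 with the largest mean fall. Promoters are the RefSeq entries of GRCm38.p6, matched by symbol for 41 members. Chromosomes come from the same annotation, and no other coordinates are given. Hm13 was not analysed here, and some items are not reported here.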

Additional observations from a re-analysis of the deposited data

Results flagged for a closer look

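Among 208 groups of 4 libraries (52 members, 2 lines, 2 kinds), the highest or lowest library lay far from the other 3 in 13, by a gap above Dixon's critical value. Chance gives about 1 in 20 groups. Replicate 4 was that library, on the high side, in 12 of the 13.

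In KMNTC, replicate 4 stood out in RPF for Dnajb9 at 483 CPM (median of the other days 143), Ero1lb at 75.1 CPM (16.2) and Xbp1 at 215 CPM (67.3). In KMNTC RNA it stood out for Ero1lb at 77.03 CPM (21.7), Creld1 at 61.5 CPM (23.5) and Xbp1 at 145 CPM (54.7).

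In KM4A2cr, replicate 4 stood out in RPF for Hspa5 at 15462 CPM (median of the other days 5261), Ero1lb at 77.8 CPM (23.8), Creld1 at 153 CPM (69.5), Ube2g2 at 29.9 CPM (14.1) and Wfs1 at 1679.7 CPM (786). In KM4A2cr RNA it stood out for Wfs1 at 431 CPM (229). The exception was Txndc5, whose KM4A2cr RPF replicate 2 was low at 381 CPM (746).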

How the results depend on the processing

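The number of members called depended on the day term and on single days. With no replicate block it was 0 in RPF, 0 in total RNA and 0 in TE, against 14, 8 and 0. Over the 4 fits that each leave out 1 replicate it ranged from 0 (without replicate 3) to 38 (without replicate 4) in RPF, from 0 (without replicates 2 and 3) to 41 (without replicate 4) in RNA, and from 0 to 2 in TE. An adjusted p of 0.05 left 8 in RPF. In RNA, library size alone gave 5, a filter of at least 1 count in any library 14, DESeq2 13, and the isoform used for RPF 8. Other scalings, filters and DESeq2 gave 10 to 20 in RPF. With library size alone, replicate 4 was at least 2-fold higher in both lines for 5 RPF members and 1 RNA member, against 11 and 4 with TMM. Of all genes, 210 of 10291 in RPF and 316 of 10880 in RNA were so with library size alone. The causes were not tested. The share of all genes called was not counted for the fits with no replicate block or without replicate 1, 2 or 3. It was also not counted for the 0.05 threshold, the other scalings and filters, DESeq2 or the RPF isoform. Those member counts therefore cannot be set against all genes.

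Of 529 comparisons for the 23 members named in the report, 393 kept direction and side of the threshold, 90 lost it, 29 gained it and 17 changed sign, all in Atf6, Herpud1 and Sdf2l1, which pass in no fit. Atf6 RPF went to -0.0266 (upper-quartile factors), -0.115 (library size) and -0.0121 (no replicate block), and ranged from -0.0652 to 0.0959 over the fits that leave out 1 replicate, with -0.0194 without replicate 2. Atf6 RNA went to -0.0301 and -0.147 under the same scalings and -0.011 with the any-count filter, and ranged from -0.0795 to 0.085, with -0.0303 without replicate 1. With library size alone, Herpud1 went to -0.00964 in RPF and -0.0193 in RNA. Its RPF value ranged from -0.0514 (without replicate 4) to 0.368. Sdf2l1 RPF ranged from -0.25 to 0.128 (without replicate 3). Its RNA value went to -0.00887 (upper-quartile factors) and -0.126 (library size), and ranged from -0.00334 (without replicate 1) to 0.0763.

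At these depths members with few counts are imprecise, such as Fkbp14 and Derl3 in both kinds of library and Erp29 in RPF only.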
